A study of Mus musculus with 11 samples.

Results

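A set of 10 genes of the blood vessel wall were followed in the dorsal root ganglion (DRG), the cluster of sensory neuron cell bodies beside the spinal cord. They were taken from the expression table by gene name, and all 10 were found among its 36670 genes. They are *Ackr1*, *Plvap*, *Pecam1*, *Cldn5*, *Cdh5*, *Kdr*, *Flt1* and *Tek*, which are known from endothelial cells, and *Pdgfrb* and *Rgs5*, which are known from the pericytes that wrap small vessels. RNA-Seq of DRGs gave 11 libraries, each taken as 1 mouse. WT control mice (n = 3) and WT mice 4 weeks after paclitaxel (PTX), a chemotherapy drug that causes neuropathic pain, were compared with *Gpr37l1*-KO control mice (n = 3) and KO mice 4 weeks after PTX (n = 2), with 3 WT mice in the PTX group. Each group held 1 female, numbered replicate 3, and the others were male, so sex and that replicate number cannot be told apart. The KO removes *Gpr37l1*, an orphan receptor of satellite glia, from the whole animal and not from vessels alone, so both KO groups share it, and the controls received no PTX. The strain name of the KO line gives it a mixed origin from C57BL/6 and another inbred strain.

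Endothelial cells line vessels and pericytes sit on their outer face. In the DRG the vessels around cell bodies are known to be leakier than those of the nerve trunk and brain. ACKR1 is an atypical chemokine receptor that binds chemokines without G protein signaling and is known from venules and red cell precursors. PLVAP forms the diaphragms of endothelial pores, whereas CLDN5 seals the tight junctions of barrier vessels.

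The libraries held 52735648 to 80348732 estimated counts, with a median of 75538569. *Gpr37l1* was at 14.6 to 35.7 FPKM (fragments mapped, scaled to transcript length and library depth) in the 6 WT libraries and at 0.21 to 1.15 FPKM in the 5 KO libraries, as the labels require. Summed FPKM of 8 skeletal muscle markers ran from 3.22 to 561 over the libraries and was 14.6 to 503 in WT control, 3.22 to 166 in WT PTX, 98.7 to 561 in KO control and 63.6 to 92.1 in KO PTX mice. Spinal cord markers (8 genes) summed to 2.55 to 8.21 FPKM in 10 libraries and to 19.8 in KO PTX replicate 3. Macrophage markers (8 genes) summed to 66.1 to 82.4 FPKM in WT control and 44.3 to 57.3 in WT PTX mice. Sensory neuron markers (7 genes) summed to 4077 to 5168 FPKM, so the tissue carried its defining genes. The part of these other tissues and cells in the results was not tested.

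All 10 genes passed the filter of a mean of 0.5 FPKM, which 15087 genes passed. In WT controls *Ackr1* was the highest, at 62.1 ± 3.81 FPKM (mean ± SD, n = 3). *Rgs5*, which encodes a regulator of G protein signaling, followed at 32.3 ± 15.9 FPKM. *Cldn5* stood at 8.71 ± 1.99 FPKM and *Pdgfrb*, the receptor through which endothelial PDGF-B holds pericytes, at 7.31 ± 1.21 FPKM, and their ranges overlapped. *Plvap* (5.45 ± 0.258 FPKM) and *Cdh5*, the adhesion protein of endothelial junctions (5.02 ± 1.10 FPKM), also overlapped. *Pecam1*, another junctional adhesion molecule, stood at 3.06 ± 0.412 FPKM, below the range of *Cdh5* and above that of *Flt1*. The VEGF and angiopoietin receptors were lowest, with *Flt1* (VEGF receptor and decoy) at 1.61 ± 0.162, *Tek* (angiopoietin receptor) at 1.42 ± 0.329 and *Kdr* (the main VEGF signaling receptor) at 1.22 ± 0.146 FPKM. The range of *Tek* overlapped both others, whereas *Flt1* lay above *Kdr*. *Ackr1* was above *Rgs5* in 11 of 11 libraries, and *Plvap* was above *Cdh5* in 2 of 3 WT controls but in 3 of all 11 libraries.

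*Ackr1* was also the highest of 23 chemokine receptors. The next were *Cxcr4* at 7.15 ± 0.673, *Ackr3* at 2.62 ± 0.433 and *Cx3cr1* at 1.91 ± 0.344 FPKM in WT controls (n = 3). Other venous markers were low, with *Nr2f2* at 3.56 to 5.03, *Ephb4* at 1.81 to 2.87, *Vwf* at 0.96 to 1.57 and *Selp* at 0.05 to 0.26 FPKM over the 11 libraries. Chemokines that ACKR1 binds were also low, with *Ccl11* at 4.85 to 8.57, *Ccl2* at 0.59 to 3.77 and *Ccl7* at 0.92 to 2.86 FPKM. Red cell RNA was present, since *Hbb-bs* ran from 25.1 to 99.9 FPKM, and its Pearson r with *Ackr1* over the 11 libraries was 0.17. *Ackr1* (ENSMUSG00000037872) lies at chr1:173331886-173333750 on the minus strand of GRCm38. It overlaps the 3′ end of *Cadm3*, an adhesion gene on the same strand, over 493 bases, and 25.7% of its 1405 exonic bases are also exonic in *Cadm3*. *Cadm3* was at 77.5 to 92.4 FPKM, so strand cannot separate the reads of the overlap and the level of *Ackr1* is uncertain to that extent. Over the libraries the r of *Cadm3* with *Ackr1* was -0.57. *Plvap* and *Cdh5* also share their locus with a gene on the opposite strand, *Gtpbp3* and the antisense gene *Gm29682* respectively, and the strand setting of the counting is not stated, so their reads may include those of the partner.

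**Figure D1:**
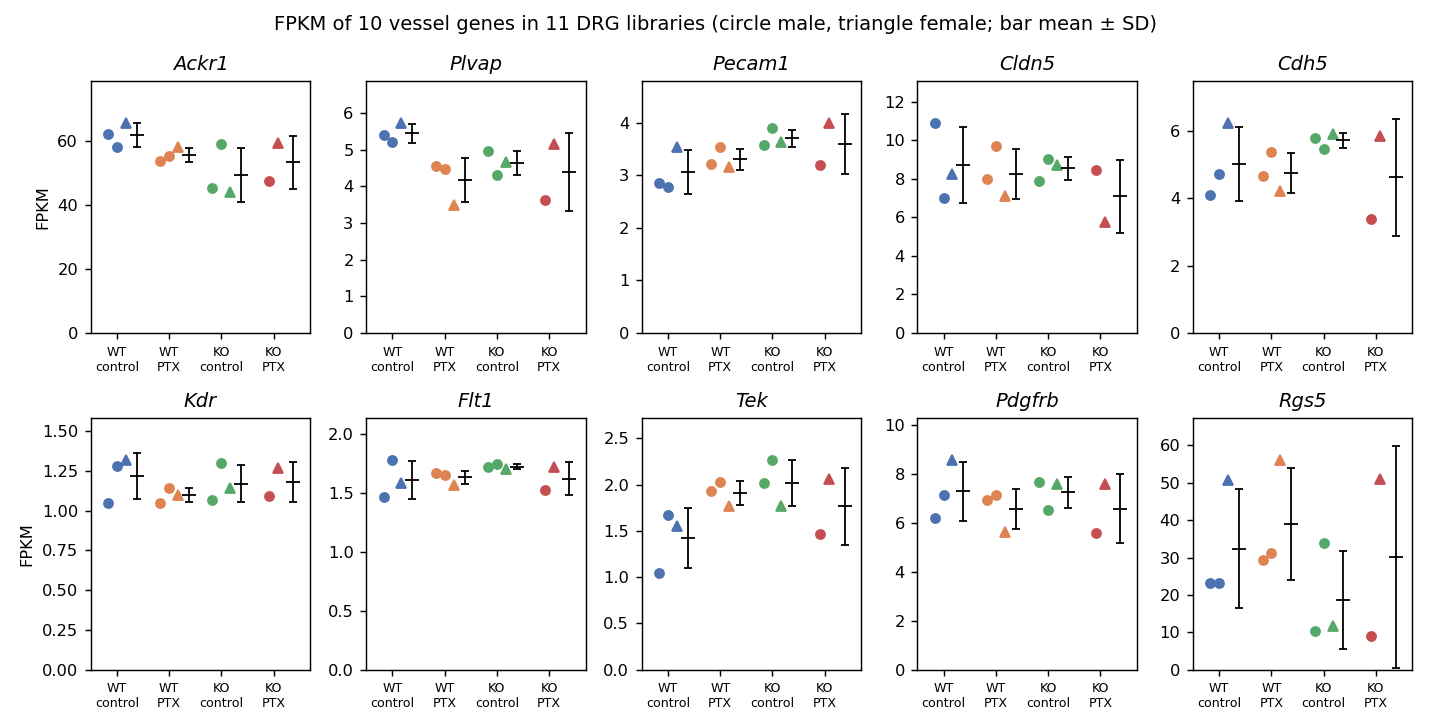
FPKM (vertical axes, from 0) of each of the 10 genes in the 4 groups, 1 point per mouse, with the mean and SD of each group at its right. *Rgs5* spans 9.15 to 56.2 FPKM, while *Flt1* stays between 1.46 and 1.78 FPKM.

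The members differed in how far they varied between mice. The coefficient of variation over the 11 libraries was 6.13% for *Flt1*, the steadiest, 9.13% for *Kdr*, 11.5% for *Pecam1* and 12.8% for *Ackr1*, against a median of 11.3% over all tested genes. The others ran from 13.1% for *Pdgfrb* to 19.1% for *Tek*, except *Rgs5* at 56.0%, which was above 97.3% of tested genes. To show both ends of this range and a barrier gene, the 250 bases before the RefSeq start (GRCm38.p6) of *Rgs5*, *Flt1* and *Cldn5* are given on the gene's strand. Capitals mark GGAA or its reverse complement TTCC, the core bound by ETS factors, a family known for its role in endothelial genes. The windows are chr1:169655251-169655500 (plus strand), chr5:147726012-147726261 (minus strand) and chr16:18776597-18776846 (plus strand).
Rgs5: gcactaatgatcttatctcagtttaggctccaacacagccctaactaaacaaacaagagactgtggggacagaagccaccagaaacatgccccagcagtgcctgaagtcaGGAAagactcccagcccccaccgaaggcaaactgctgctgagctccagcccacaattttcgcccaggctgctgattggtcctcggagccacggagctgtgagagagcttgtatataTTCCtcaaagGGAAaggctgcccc
Flt1: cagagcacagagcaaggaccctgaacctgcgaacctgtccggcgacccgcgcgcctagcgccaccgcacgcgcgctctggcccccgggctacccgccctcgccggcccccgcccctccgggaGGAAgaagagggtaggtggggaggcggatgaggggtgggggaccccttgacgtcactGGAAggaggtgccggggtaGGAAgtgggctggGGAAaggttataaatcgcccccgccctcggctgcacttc
Cldn5: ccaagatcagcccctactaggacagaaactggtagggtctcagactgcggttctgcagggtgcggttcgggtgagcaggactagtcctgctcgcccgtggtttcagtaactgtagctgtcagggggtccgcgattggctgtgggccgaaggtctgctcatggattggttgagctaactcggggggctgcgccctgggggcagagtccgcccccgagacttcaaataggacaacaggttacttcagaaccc
*Rgs5* held 3 matches, *Flt1* 4 and *Cldn5* 0. GGAA on either strand occurred in 93.4% of the 32851 windows of this length, with a median of 3 matches, so the matches of *Rgs5* and *Flt1* are common. The table held promoters of 6 of the 10 genes.

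First, the effect of PTX in WT mice was examined. *Ackr1* was at 62.4, 58.2 and 65.8 FPKM in WT controls and at 53.9, 55.3 and 58.3 FPKM after PTX. The highest PTX mouse lay just above the lowest control, and the log2 fold change was -0.16 ± 0.129 (SE; edgeR adjusted p = 0.594). *Plvap* (ENSMUSG00000034845, chr8:71497765-71511752, minus strand) was at 5.41, 5.22 and 5.73 FPKM in controls and at 4.57, 4.47 and 3.48 FPKM after PTX. Every PTX mouse lay below every control, with a log2 fold change of -0.39 ± 0.156 (unadjusted p = 0.0322, edgeR adjusted p = 0.346), which missed the threshold of 0.05. Without WT PTX replicate 3 it was -0.23, and in males alone -0.26. Macrophage markers were lower in the same mice, with 7 of 8 at an unadjusted p under 0.05, 0 passing by edgeR and 6 by DESeq2, and their part in the *Plvap* values was not tested. *Tek* (ENSMUSG00000006386, chr4:94739289-94874976, plus strand) was at 1.05, 1.67 and 1.55 FPKM in controls and 1.93, 2.03 and 1.77 FPKM after PTX, again without overlap but in the other direction. Of the 10 genes, 0 passed the threshold by edgeR or by DESeq2, and 1 (*Plvap*) had an unadjusted p under 0.05, as had 13.5% of all tested genes. Over all tested genes 0.00663% passed by edgeR. Among all genes 6.81% were higher and 7.37% lower without overlap in this comparison, against 1 (*Tek*) and 1 (*Plvap*) of the 10. Of the 10 genes 4 had a log2 fold change above 0 in this fit and 6 below it, with a median of -0.07. For the lower *Plvap* values, fewer cells that express it and less RNA per cell cannot be told apart in these bulk libraries.

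In KO mice PTX moved none of the 10 genes past the threshold. *Ackr1* was at 45.3, 59.3 and 44.1 FPKM in KO controls and at 47.5 and 59.4 FPKM in KO PTX mice, which overlapped, with a log2 fold change of 0.09 ± 0.147 (edgeR adjusted p = 0.999). Without KO control replicate 3 it was -0.08, without KO PTX replicate 3 it was also -0.08, and in males alone it was -0.16. In this and later comparisons, the male fits and those without a KO PTX replicate hold 1 KO PTX mouse. The other fitted log2 fold changes ran from -0.38 (*Cdh5*) to 0.12 (*Rgs5*), and that of *Rgs5* was 1.07 without KO PTX replicate 2 and -1.30 in males alone. Of the 10 genes 0 passed by edgeR and by DESeq2, and 0 had an unadjusted p under 0.05 (4.32% of all tested genes), where 0.00663% of all tested genes passed by edgeR. None had groups without overlap, a pattern that 11.3% of all genes showed upward and 10.4% downward.

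Loss of *Gpr37l1* was then compared between control mice. *Ackr1* was lower in KO controls in the fit, by a log2 fold change of -0.32 ± 0.130 (unadjusted p = 0.0327, edgeR adjusted p = 0.657), but KO control replicate 2, at 59.3 FPKM, lay within the WT range. Without that mouse the value was -0.52, without replicate 3 it was -0.18, and in males alone it was -0.20. Loss of *Gpr37l1* and strain sequence that may have come with the KO allele on chromosome 1, where *Ackr1* also lies, cannot be told apart in comparisons of KO with WT. *Pecam1* (ENSMUSG00000020717, chr11:106654217-106750628, minus strand) was at 2.86, 2.78 and 3.53 FPKM in WT and 3.58, 3.89 and 3.63 FPKM in KO controls. All KO values lay above all WT values, with a log2 fold change of 0.28 ± 0.112 (unadjusted p = 0.0291, edgeR adjusted p = 0.657). *Tek* was at 2.02, 2.27 and 1.77 FPKM in KO controls, above the 3 WT values given before, with a log2 fold change of 0.51 ± 0.199 (unadjusted p = 0.0287, edgeR adjusted p = 0.657), which was 0.33 without WT control replicate 1. *Plvap* was at 4.97, 4.31 and 4.67 FPKM in KO controls, below all WT controls. No value passed the threshold, so none of the 10 is called changed by edgeR, DESeq2 called 0 as well, and 3 of 10 had an unadjusted p under 0.05, against 7.54% of all tested genes. Over all genes 0.00663% passed by edgeR, which is *Gpr37l1* itself. Groups did not overlap for 4.55% of genes upward and 4.73% downward, against 2 (*Pecam1* and *Tek*) and 1 (*Plvap*) of the 10. This comparison and that of PTX in WT share the 3 WT controls.

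After PTX, KO and WT mice overlapped for each of the 10 genes. *Ackr1* differed by a log2 fold change of -0.07 ± 0.146 (edgeR adjusted p = 0.993), and it was 0.12 without KO PTX replicate 2. The others ran from -0.71 ± 0.653 for *Rgs5* to 0.10 for *Pecam1*. The *Rgs5* value was -1.89 without KO PTX replicate 3 and 0.14 without replicate 2. Again 0 of 10 passed by edgeR or DESeq2, and 0 had an unadjusted p under 0.05 (3.55% of all genes), beside 0.0133% of all genes by edgeR. Without overlap, 10.7% of all genes were higher and 9.58% lower in KO.

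Over both genotypes the PTX log2 fold change of *Ackr1* was -0.03 ± 0.0980 (edgeR adjusted p = 0.929), turning to 0.05 without KO control replicate 2 and to 0.06 without KO PTX replicate 2. The difference of the PTX effect between KO and WT was 0.25 ± 0.196 for *Ackr1* (edgeR adjusted p = 0.763), which was 0.45 without KO PTX replicate 2, 0.43 without KO control replicate 2, 0.08 without KO control replicate 3, 0.09 without KO PTX replicate 3 and 0.0027 in males alone. Females against males gave 0.05 ± 0.101 (edgeR adjusted p = 0.917), which was -0.03 without KO PTX replicate 2 and likewise without replicate 3. In these 3 comparisons 0 of the 10 genes passed by edgeR or DESeq2 and 0 had an unadjusted p under 0.05, beside 9.36%, 6.30% and 8.44% of all genes. Over all genes 0.0133% passed for PTX, 0.00663% for the difference between genotypes and 0.0398% for sex.

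**Figure D2:**
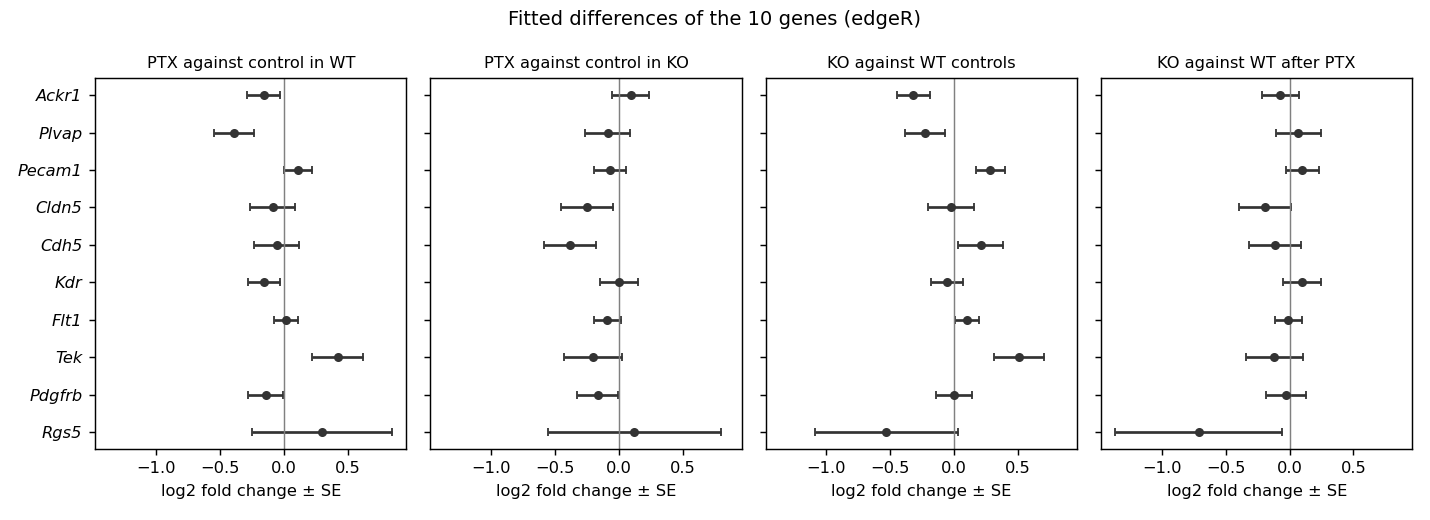
Fitted log2 fold change (horizontal axes, points) with its SE (bars) for the 10 genes (rows) in 4 comparisons. The widest bars belong to *Rgs5*, and no gene passed the adjusted threshold in any panel.

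Next, 3 ratios within a mouse were tested. The log2 ratio of *Ackr1* to *Pecam1*, computed from FPKM + 1, was 3.96 ± 0.0784 in WT control and 3.73 ± 0.0998 in WT PTX mice (n = 3 each). It was 3.41 ± 0.183 in KO control (n = 3) and 3.56 ± 0.0451 in KO PTX mice (n = 2). All 6 WT mice had a higher ratio, from 3.64 to 4.04, than all 5 KO mice, from 3.28 to 3.62. The margin was narrow, between WT PTX replicate 2 (3.636) and KO control replicate 2 (3.624). The share of gene pairs that separate WT from KO in this way was not counted. The mean difference of KO from WT within treatments was -0.35 (exact two-sided permutation test within treatment, p = 0.01, adjusted over 6 ratio tests p = 0.06), so it missed the threshold. The smallest p this design allows is 0.005. In the fits *Ackr1* was lower and *Pecam1* higher in these same KO controls, so the ratio is not independent of those results. The ratio tests were chosen with earlier results of these data known. The same ratio differed by -0.04 after PTX within genotypes (exact permutation adjusted p = 0.89). The ratio of *Plvap* to *Cldn5*, pore against tight junction, differed by -0.05 for PTX and 0.04 for KO (exact permutation adjusted p = 0.89 for both). The ratio of *Rgs5* to *Pdgfrb* differed by 0.49 for PTX (exact permutation adjusted p = 0.74) and by -0.79 for KO (exact permutation adjusted p = 0.45), with an SD of up to 1.40 within a group.

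The *Rgs5* values fell into separate ranges. It was at 23.1, 23.1 and 50.7 FPKM in WT controls and at 29.4, 31.3 and 56.2 FPKM in WT PTX mice. In KO controls it was at 10.5, 33.8 and 11.8 FPKM, and in KO PTX mice at 9.15 and 51.1 FPKM. Hence 3 KO mice (controls 1 and 3 and PTX replicate 2) lay at 9.15 to 11.8 FPKM and the other 8 mice at 23.1 to 56.2 FPKM. Of the 4 females 3 were the highest, while the female KO control was among the 3 lowest. The female to male log2 fold change was 0.87 ± 0.458 (edgeR adjusted p = 0.640), 1.41 without KO control replicate 3 and 0.46 without KO PTX replicate 2. *Pdgfrb*, also known from pericytes, was at 5.61 to 8.59 FPKM and did not follow *Rgs5*, with an r of 0.12 over the 11 libraries. Among other mural cell markers *Abcc9* was at 0.39 to 0.81 and *Higd1b* at 0.35 to 1.13 FPKM, whereas *Vtn* was at 4.95 to 16.0 FPKM. The cells that the *Rgs5* RNA came from were not tested.

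*Ackr1* was lowest in those same 3 KO mice, at 44.1 to 47.5 FPKM, against 53.9 to 65.8 FPKM in the other 8. This split was drawn from the *Rgs5* values after they were seen. The share of all tested genes that separate across it was not counted. As a description, Pearson's r between *Ackr1* and *Rgs5* was 0.84 over the 11 libraries (Spearman's rho 0.68) and 0.72 without the 2 libraries farthest from the median of *Rgs5*, but 0.28 within the 6 WT libraries. The relation across all mice therefore rests largely on the 3 KO mice. Both genes lie on distal chromosome 1, 3.68 Mb apart, with *Rgs5* (ENSMUSG00000026678) at chr1:169655501-169695813 on the plus strand. *Gpr37l1*, at chr1:135160234-135167681, is 34.5 Mb from *Rgs5*. The strain origin of chromosome 1 in each mouse was not analysed here, and its part in the *Rgs5* and *Ackr1* values and in the *Ackr1* to *Pecam1* ratio was not tested.

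**Figure D3:**
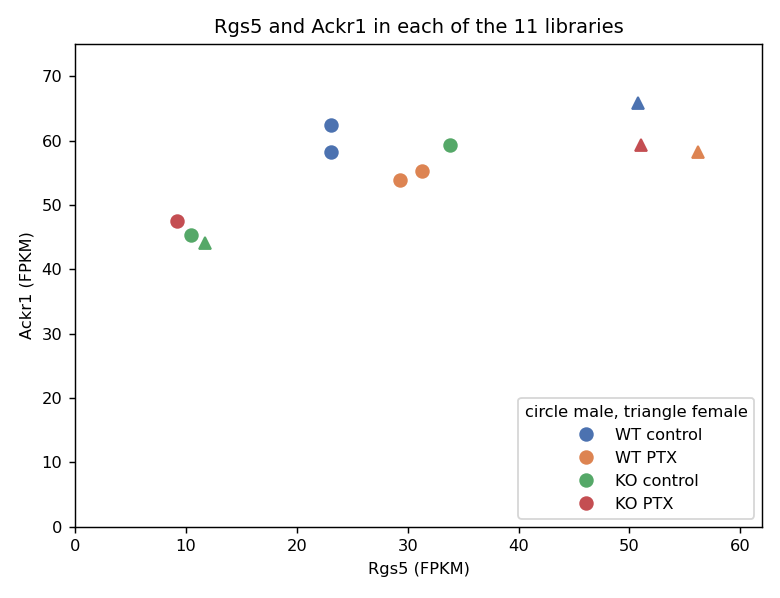
*Ackr1* (vertical axis, FPKM) against *Rgs5* (horizontal axis, FPKM), 1 point per mouse, colored by group. The 3 KO mice below 12 FPKM of *Rgs5* are also the lowest for *Ackr1*, and the 6 WT mice show little relation (r = 0.28). Those 3 were set apart by *Rgs5* after its values were seen.

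Genes with the pattern most like *Ackr1* over the 11 libraries, members left out, were *Gas5* (r = 0.87), *Fcgr3* (0.86), *Fcgr2b* (0.85), *3110045C21Rik* (0.85) and *Pbdc1* (0.84). Of these 5, 4 lie on chromosome 1, which holds 5.66% of tested genes. The same was then asked of *Rgs5*, a choice made after the values were seen. *Copa* (r = 0.92), *C1ql4* (0.89), *Fcgr2b* (0.89), *Gas5* (0.89) and *Rxylt1* (0.89) came first, 3 of them on chromosome 1. *Gas5*, a host of small nucleolar RNAs, was at 4.10 to 4.67 FPKM in the 3 KO mice with low *Rgs5* and at 8.03 to 13.9 FPKM in the other 8. *Fcgr2b*, an inhibitory Fc receptor, was at 0.39 to 0.55 against 0.72 to 0.97 FPKM. *Lyplal1* ran the other way, at 10.4 to 12.7 against 4.73 to 9.10 FPKM (r with *Rgs5* -0.91), and *Catspere2* did so too, at 2.63 to 3.25 against 0.23 to 1.69 FPKM. *Gas5*, *Fcgr2b*, *Lyplal1* and *Catspere2* all lie on chromosome 1. They were picked for an extreme r with *Rgs5* over these same libraries. Their separation between the 3 KO mice and the other 8 therefore follows largely from that choice.

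An absolute r of 0.8 or more with *Rgs5* was found for 20 of 854 tested genes on chromosome 1 other than the 10 members (2.34%) and for 18 of 14223 elsewhere (0.127%). Within 20 Mb of *Rgs5* the count was 18 of 249 (7.23%), and beyond 20 Mb on the same chromosome it was 2 of 605 (0.331%). For *Ackr1* it was 9 of 854 on chromosome 1 (1.05%) and 22 of 14223 elsewhere (0.155%). Within 20 Mb of *Ackr1* it was 6 of 258 (2.33%), and beyond 20 Mb on chromosome 1 it was 3 of 596 (0.503%). These shares describe 11 libraries that all the genes share, and they carry no test.

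**Figure D4:**
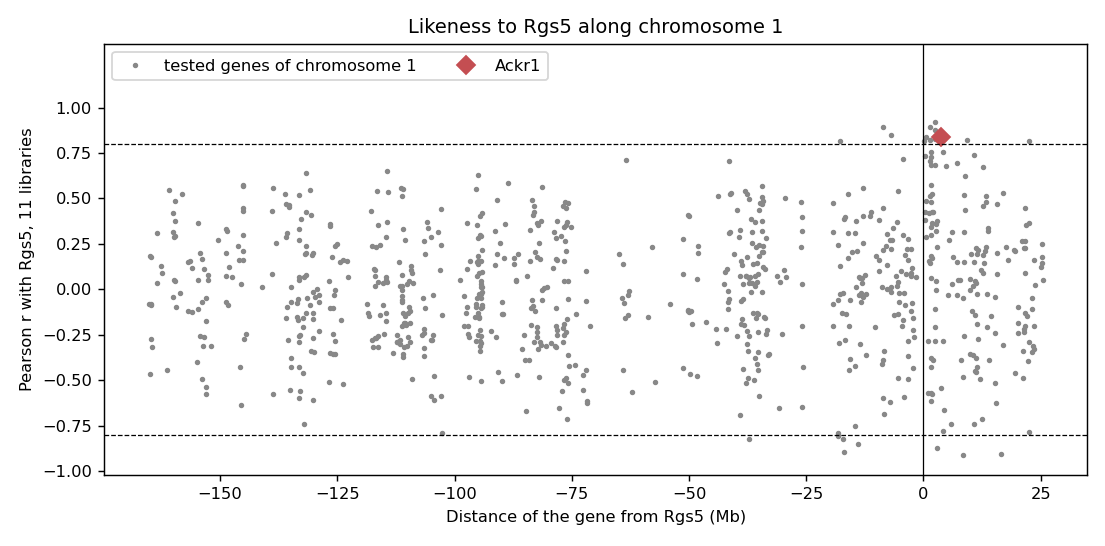
Pearson r with *Rgs5* over the 11 libraries (vertical axis) for the tested genes of chromosome 1, by distance from *Rgs5* in Mb (horizontal axis). Dashed lines mark an r of 0.8 in either direction, and 19 of the 21 genes past them, *Ackr1* included, lie within 20 Mb.

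The other endothelial genes did not all vary alike from mouse to mouse. Among *Pecam1*, *Cdh5*, *Kdr*, *Flt1* and *Tek*, a set chosen after the values were seen, all 10 pairs had an r above 0, from 0.31 to 0.79 with a median of 0.54. *Cldn5* went against all 5 of them, with r from -0.49 to -0.19. *Plvap* had r from -0.21 to 0.57 with them, with a median of 0.18. *Ackr1* had a median r of -0.14 with those 5 and *Rgs5* one of 0.19. *Pdgfrb* followed *Cdh5* most closely, with an r of 0.89 over the 11 libraries and 0.93 within the 6 WT libraries. Without the 2 libraries farthest from the median of *Cdh5* it was 0.84. Other pairs held less well when 2 libraries were left out by the first gene named. *Cldn5* with *Flt1* went from -0.49 to -0.06, and *Flt1* with *Tek* from 0.79 to 0.42. *Pecam1* with *Tek* went from 0.70 to 0.61, whereas *Pecam1* with *Cdh5* went from 0.70 to 0.75. The 11 points share their depth and tissue makeup, and no test was made. Genes most like the mean of *Pecam1*, *Cldn5*, *Cdh5*, *Kdr*, *Flt1* and *Tek* were *Lima1* (0.92), *S100a7a* (0.91), *Zdhhc5* (0.89), *Paqr3* (0.87) and *Gm10608* (0.87), 0 of 5 on chromosome 1. Those most like the mean of *Pdgfrb* and *Rgs5* were *Bcdin3d* (0.92), *Gm6685* (0.91), *Mplkip* (0.91), *Gm14292* (0.88) and *Gm13577* (0.86).

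**Figure D5:**
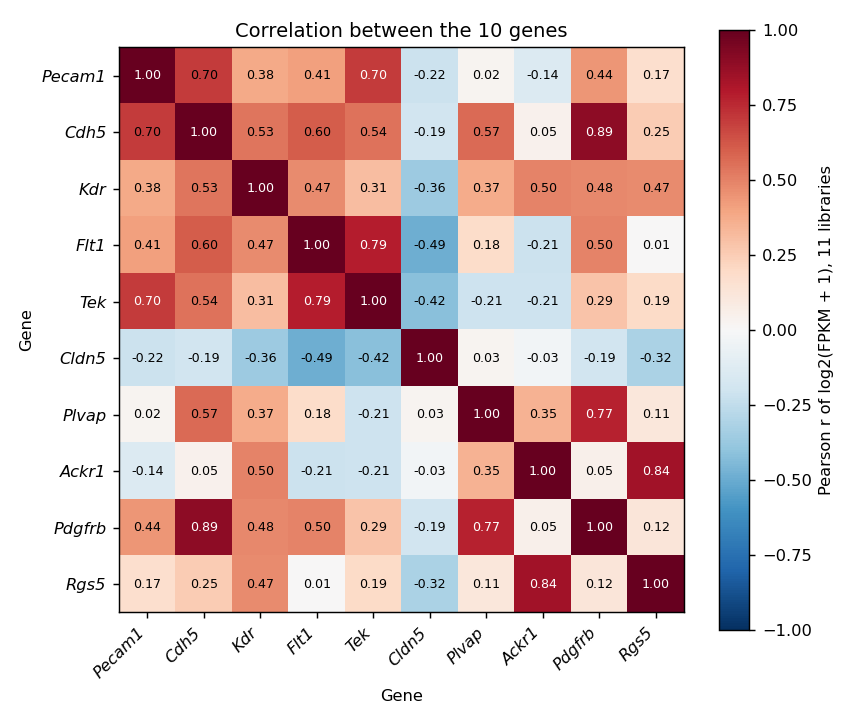
Pearson r of log2(FPKM + 1) over the 11 libraries for each pair of the 10 genes (both axes), from blue (-1) to red (1). *Pecam1*, *Cdh5*, *Kdr*, *Flt1* and *Tek* are positive with each other, and *Cldn5* is negative with all 5.

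Other genes of the vessel wall were counted in the same fits. Of 19 tested pan-endothelial markers 0 passed by edgeR in either direction after PTX in WT mice or with loss of *Gpr37l1* in controls, with 4 and 3 at an unadjusted p under 0.05, and DESeq2 passed 1 and 0. Over all tested genes 13.5% and 7.54% had such a p, and DESeq2 passed 309 and 42 genes, which also holds as the background of the lists that follow. Their median log2 fold change was 0.07 and 0.13, beside -0.01 and 0.00 over all genes. *Cd34* at 5.52 to 9.84, *Egfl7* at 5.61 to 8.18 and *Esam* at 4.28 to 8.04 FPKM were the highest of them. *Esam*, an endothelial adhesion molecule named after its values were seen, fell by 0.49 on the log2 scale in the edgeR fit after PTX in WT and passed by DESeq2 only (DESeq2 adjusted p = 0.00459, edgeR adjusted p = 0.203). Mural cell markers (14 tested) had a median of -0.19 after PTX in WT mice, with 0 passing by edgeR or DESeq2 and 3 at an unadjusted p under 0.05. Their highest were *Mcam* at 60.0 to 73.5, *Vtn* at 4.95 to 16.0 and *Acta2* at 5.83 to 13.1 FPKM. *Abcc9* and *Higd1b* were far lower, as given before, and the cells that the *Mcam* RNA came from were not tested. Barrier genes (10 tested, 0 passing by either tool, 2 at an unadjusted p under 0.05 in each comparison) had medians of 0.03 for PTX in WT and 0.13 for KO controls, led by *Itm2a* at 19.9 to 34.7 and the glucose transporter gene *Slc2a1* at 14.6 to 20.6 FPKM. Ligands and coreceptors of vessel growth (15 tested, 0 passing by either tool, 1 at an unadjusted p under 0.05 in each) had medians of 0.00 in both, with *Vegfb* at 12.2 to 19.7 and *Vegfa* at 11.03 to 18.1 FPKM. Venous (7 tested) and arterial (6 tested) markers had medians of -0.37 and -0.06 after PTX in WT, with 2 and 1 at an unadjusted p under 0.05 and 0 passing by either tool. Lymphatic markers (4 tested, 0 passing by either tool, 1 at an unadjusted p under 0.05) had a median of -0.13, and *Prox1*, which defines lymphatic vessels, was at 0.02 to 0.07 FPKM.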

How the data were processed

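DRG RNA was sequenced in 11 libraries. The authors trimmed reads with cutadapt, checked them with FastQC, aligned them to mm10 with HISAT2 and quantified genes with StringTie, per the labels; versions, strand and the PTX dose for these libraries are not given in the sources used here. The deposited table holds FPKM and whole-number estimated counts per gene, in which a count of 4 (1369 genes in WT control replicate 1) was more frequent than 3 (573) or 5 (334). Gene positions were checked against GENCODE vM21 (GRCm38). Estimated counts were fitted with edgeR 4.0.16 (quasi-likelihood, TMM, sex as covariate, all 11 libraries, mean FPKM of at least 0.5, Benjamini-Hochberg adjusted p under 0.05) in R 4.3.3, over 7 comparisons. DESeq2 1.42.0 and limma 3.58.1 were alternatives, and the code was tested on simulated data. Levels and correlations used FPKM, the latter as log2(FPKM + 1), and ratios an exact permutation test (Python 3.11.15). Each library was taken as a separate mouse, since its label gives a group, a sex and a replicate number. The labels do not state this outright. KO PTX mice are numbered 2 and 3 by their descriptions. Mice were not treated as paired by replicate number. The mean correlation of deviations was 0.05 over 15 same-numbered pairs and -0.03 over 30 other pairs. It was over 0.1 in 5 of the 15 and in 4 of the 30. Whether same-numbered mice share a source of variation was not tested. Genes printed were the 10 members, the list genes past the threshold or the 2 to 4 highest by mean FPKM, and the 5 nearest in pattern. Beyond that rule, *Cadm3*, *Selp*, *Vwf*, *Prox1*, *Esam*, *Abcc9*, *Higd1b*, *Lyplal1* and *Catspere2* were named after their values were seen. Members, lists and tests were chosen with earlier results of these data known. Precision is limited by 2 or 3 mice a group.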

Additional observations from a re-analysis of the deposited data

How the results depend on the processing

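Of the 10 genes, 0 passed the threshold in any of 144 checks, each being 1 comparison under 1 alternative setting. Checks of different comparisons often came from the same fit. Among the settings was edgeR in which WT control replicate 1 and both KO PTX mice were left out, chosen after seeing the data. With the replicate block in place of sex the *Ackr1* log2 fold change was -0.16 for PTX in WT and -0.32 for KO controls. In each of these comparisons 1 gene passed, and no call among the 10 genes changed. That block contains sex, since every female is replicate 3, so it is not a separate check of sex. Of the 11 libraries 7 correlated best with a library of their own number. Fits limited to males, which hold 1 KO PTX mouse (replicate 2), turned the sign of 3 values. These were *Ackr1* for PTX in KO (-0.16), *Plvap* to *Cldn5* for KO (-0.16) and *Rgs5* to *Pdgfrb* for PTX (-0.19). Leaving out 1 mouse at a time, *Ackr1* ran from -0.076 to 0.28 for PTX in KO, -0.24 to 0.12 for KO after PTX, -0.12 to 0.061 for PTX over both genotypes and -0.028 to 0.17 for sex. The ratio differences then ran from -0.076 to 0.0087 (*Ackr1* to *Pecam1*, PTX), -0.27 to 0.18 and -0.19 to 0.26 (*Plvap* to *Cldn5*, PTX and KO) and -0.0083 to 0.98 (*Rgs5* to *Pdgfrb*, PTX), with KO PTX replicates 2 and 3 setting the widest ends. *Ackr1* to *Pecam1* stayed between -0.41 and -0.32 for KO, at adjusted p of 0.06 to 0.333 over all alternatives.

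Over all genes, edgeR passed 1 gene in WT mice given PTX, 1 in KO mice given PTX, 1 for KO controls, 2 for KO after PTX, 2 for PTX over both genotypes, 1 for the difference between genotypes and 6 for sex, whereas DESeq2 passed 309, 29, 42, 10, 125, 12 and 123. For PTX in WT the count was 2 without the low-value filter, 0 without sex, 3 and 4 by limma with pseudocounts of 1 and 0.1, 0 in males and 5 with the 2 groups alone. In males it was 3 for PTX in KO, 2 for KO controls, 4 for KO after PTX, 0 for PTX over both genotypes and 3 for the difference between genotypes. With the 2 groups alone it was 4 for PTX in KO and 6 for KO after PTX. PTX over both genotypes gave 1 without sex and 0 and 1 by limma, and sex gave 14 without the filter. In the same order, leaving out 1 mouse gave 0 to 30 (highest without WT control replicate 3). It gave 1 to 7 (KO PTX replicate 2), 1 to 4 (KO control replicate 3) and 2 to 7 (KO PTX replicate 2). Then came 1 to 18 (WT control replicate 2), 1 to 6 (KO PTX replicate 2) and 5 to 12 (KO control replicate 3). The cause of these changes was not tested. Counts of 284 to 17075 per gene and library lie behind the 10 genes.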
